A study of Canis lupus familiaris with 69 samples.

Results

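The genes described here are the ATP-binding cassette (ABC) transporters of the dog endometrium, with ABCC11 and ABCG1 followed most closely. A gene was taken as a member when its symbol in the platform annotation was ABC, a subfamily letter from A to G and a number. The rule found 41 members among the 15947 genes with a probe set of their own: 11 in subfamily A, 8 in B, 11 in C, 3 in D, 1 in E, 2 in F and 5 in G. A gene with more than 1 probe set was read from the brightest, which set 4 ABC probe sets aside, and 1 further probe set shared by ABCF2 and another gene was left out.

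Endometrium of 69 female dogs, taken when the uterus and ovaries were removed at a veterinary hospital, was hybridised to Affymetrix Canine Gene 1.0 ST arrays, 1 array per dog. The dogs were client animals of many breeds with no engineered allele. There were 17 dogs with pyometra, in which the uterus fills with pus, 15 with mucometra, in which it fills with mucus, 16 with cystic endometrial hyperplasia (CEH), and 21 with a healthy uterus in diestrus, the progesterone phase of the cycle. The study's methods describe the lesions as coming from older dogs than the healthy uteri, which were all in early diestrus. The lesions came in part from dogs in anestrus, and more often than the healthy uteri from dogs that had been given progestins. Diagnosis, age, cycle stage and progestin treatment therefore cannot be told apart here. The labels do not give cycle stage or treatment for each dog, and neither was analysed.

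ABC transporters use ATP to move lipids, sterols, bile salts, conjugated drugs and hormones, peptides or haem across membranes. In subfamilies A and G many members move lipids and sterols, members of B and C export drugs, bile salts and conjugates, and those of D lie in peroxisomes and lysosomes. The proteins of E and F share the ATP-binding fold but have no membrane part and act on ribosomes. In the uterus, which is driven by steroid hormones, the family meets cholesterol, steroid conjugates and prostaglandins as possible substrates.

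Values are log2 expression per probe set after robust multi-array averaging (RMA) with quantile normalisation, so a difference of 1 is 2-fold. They can be set against each other within a gene, not between genes, because probe sets differ in brightness. A gene was called changed when its groups differed at least 2-fold with a Benjamini-Hochberg adjusted p under 0.05 over all 15947 genes in limma. Array medians lay between 6.20 and 6.34. Of the markers of endometrium, the mean of 11 epithelial genes lay between 7.55 and 10.03 and that of 10 stromal genes between 9.22 and 11.58 in the 69 dogs. Pyometra dog 100 and mucometra dog 216 gave the arrays most like each other of any pair, although their diagnoses differ. Their r was 0.9928 over genes, against 0.9889 for the next pair, both diestrus. The calls of members were repeated without these dogs, while the list counts, shares of all genes, overlap counts and relations kept them. In bulk tissue, fewer cells of a type and less RNA per cell cannot be told apart.

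In pyometra against diestrus 8 of the 41 members were called (19.5%, against 9.98% of all genes). Of these, 6 rose (6.72% of all genes rose) and 2 fell (3.26% of all genes fell). ABCA6, ABCA8, ABCA13, ABCC2, ABCC4 and ABCG1 rose and ABCC11 and ABCD3 fell. In mucometra against diestrus 5 members were called, against 6.35% of all genes: ABCA8, ABCB11 and ABCC2 rose (3.56% of all genes rose), and ABCC11 and ABCD3 fell (2.8% of all genes fell). In CEH against diestrus 2 were called, against 1.82% of all genes: ABCA8 rose (0.865% of all genes rose) and ABCC11 fell (0.953% of all genes fell). These 3 comparisons share the 21 diestrus dogs. The difference in shares between members and all genes was not tested. The median log2 difference of the 41 members was -0.06 in pyometra, 0.02 in mucometra and 0.04 in CEH, against -0.05, -0.01 and -0.01 over all genes.

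**Figure D1:**
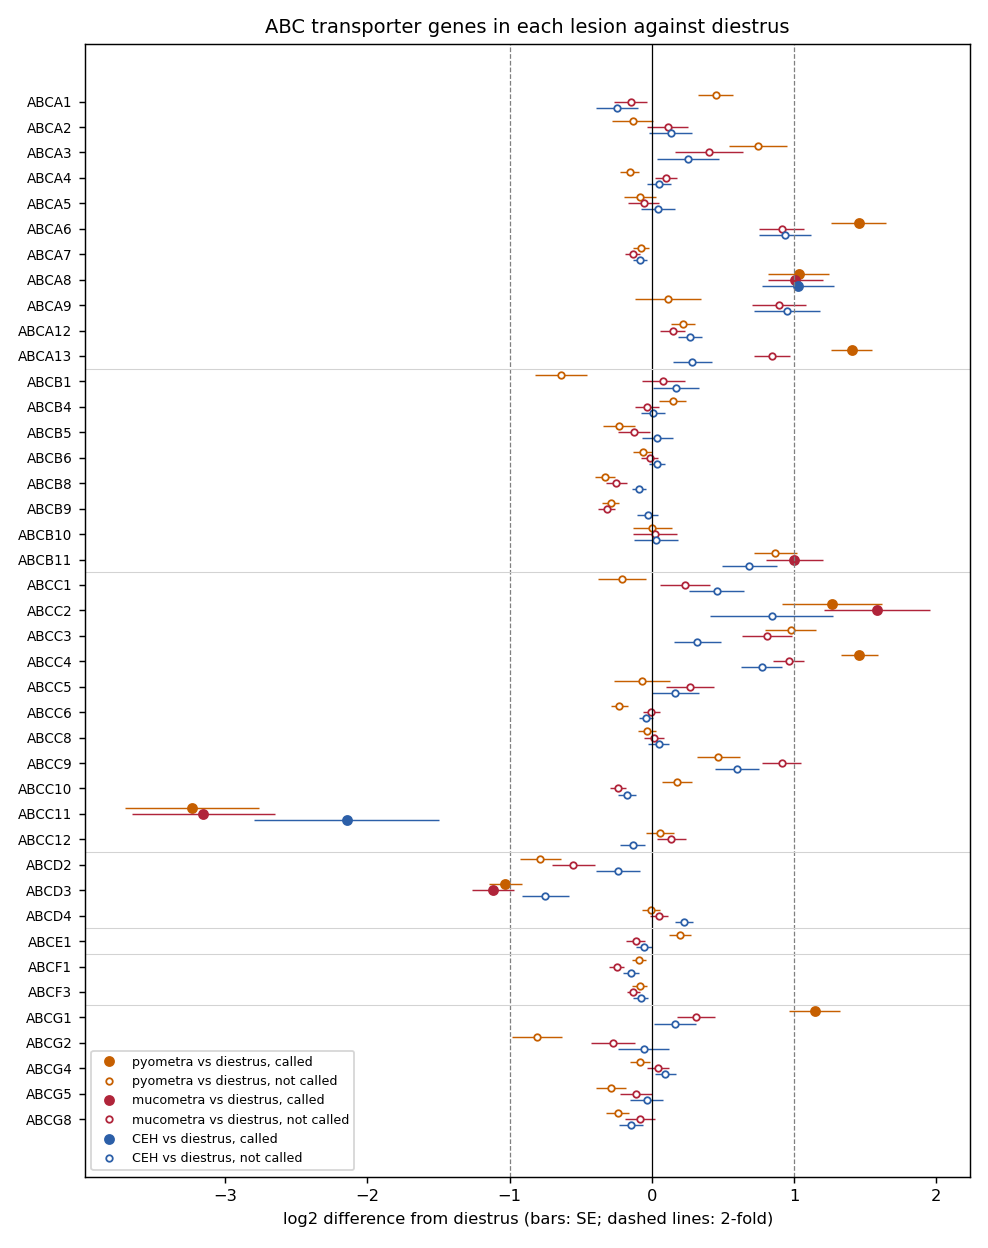
Log2 difference from diestrus of the 41 ABC transporter genes in pyometra, mucometra and CEH. Points are limma estimates, bars 1 SE, filled points genes called at 2-fold and adjusted p under 0.05, and dashed lines 2-fold. ABCC11 lies farthest from 0, at -3.23 in pyometra, -3.15 in mucometra and -2.15 in CEH.

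Between the lesions fewer members moved. Pyometra against CEH called ABCA13 alone, which rose, against 5.95% of all genes called and 4.28% that rose. Pyometra against mucometra called none in limma, against 3.65% of all genes, although 17 members had an unadjusted p under 0.05. Mucometra against CEH called none in limma, against 0.144% of all genes, with 7 members at an unadjusted p under 0.05. When pyometra was set against the 52 other dogs together, ABCA13 and ABCG1 rose and ABCC11 fell, against 5.84% of all genes called, 4.37% that rose and 1.47% that fell. By adjusted p alone, with no limit on the fold, 24 members passed in pyometra against diestrus (51.3% of all genes), 20 against CEH (39.5%) and 14 against mucometra (35.5%). By the same rule 18 passed in mucometra against diestrus (47.1%), 0 against CEH (1.43%), 12 in CEH against diestrus (26.3%) and 21 in pyometra against the other dogs (49.5%).

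ABCC11 exports cyclic nucleotides and conjugated steroids, and in humans a variant of it sets the type of earwax. Its log2 value ran from 4.05 to 4.84 in the 17 pyometra dogs (median 4.54), from 4.17 to 5.09 in the 15 mucometra dogs (median 4.64), from 4.34 to 10.68 in the 16 CEH dogs (median 4.66) and from 4.62 to 11.01 in the 21 diestrus dogs (median 7.73). The pyometra and mucometra dogs thus formed a narrow low band, while diestrus spanned a very wide range. The band lay far below the median gene mean of 7.05 over the 69 arrays. Whether it is background signal was not tested, and its narrow spread and the size of the fall may depend on that. Of the 17 pyometra dogs 13 lay below every diestrus dog, and 20 of the 21 diestrus dogs lay above every pyometra dog, so that the groups overlapped through diestrus dog 7 at 4.62.

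The spread of ABCC11 within a diagnosis differed between the groups. The SD was 0.179 in pyometra and 0.279 in mucometra, but 2.08 in CEH and 1.999 in diestrus. In CEH, 13 dogs lay at or below 5.67, and dogs 127, 81 and 175 lay at 7.74, 10.30 and 10.68. In diestrus, dogs 7, 84, 152, 25 and 148 lay between 4.62 and 5.32, and the other 16 dogs at or above 6.80. CEH and diestrus therefore each held dogs with low and dogs with high values, in different proportions.

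ABCC11 fell by 3.23 on the log2 scale in pyometra (SE 0.469, 9.41-fold, adjusted p = 2.83e-07, limma), by 3.15 in mucometra (SE 0.501, 8.90-fold, adjusted p = 2.61e-06) and by 2.15 in CEH (SE 0.651, 4.42-fold, adjusted p = 0.0138), each against diestrus. Between the lesions no difference passed the test. Pyometra differed from CEH by -1.09 (SE 0.485, adjusted p = 0.0727), mucometra from CEH by -1.01 (SE 0.518, adjusted p = 0.261) and pyometra from mucometra by -0.08 (SE 0.083, adjusted p = 0.477). In order of means, pyometra (4.52), mucometra (4.596) and CEH (5.60) were not separated from their neighbours by the test, and diestrus (7.75) stood above CEH. Against the 52 other dogs ABCC11 fell by 1.66 in pyometra (SE 0.520, adjusted p = 0.0059), a call lost with the case number of the dogs as a covariate (-1.06, adjusted p = 0.141).

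ABCC12, the gene next to ABCC11 in the RefSeq gene order of the dog assembly UU_Cfam_GSD_1.0 and its close relative, showed no such pattern. Its means were 3.68 ± 0.33 in pyometra, 3.76 ± 0.32 in mucometra, 3.49 ± 0.23 in CEH and 3.63 ± 0.29 in diestrus (SD, n = 17, 15, 16 and 21). These lay far below the median gene mean of 7.05 in every group, diestrus included, and may be near background, where a fall would be hard to see. Among dogs of 1 diagnosis the values of ABCC11 and ABCC12 had r between 0.15 and 0.41.

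**Figure D2:**
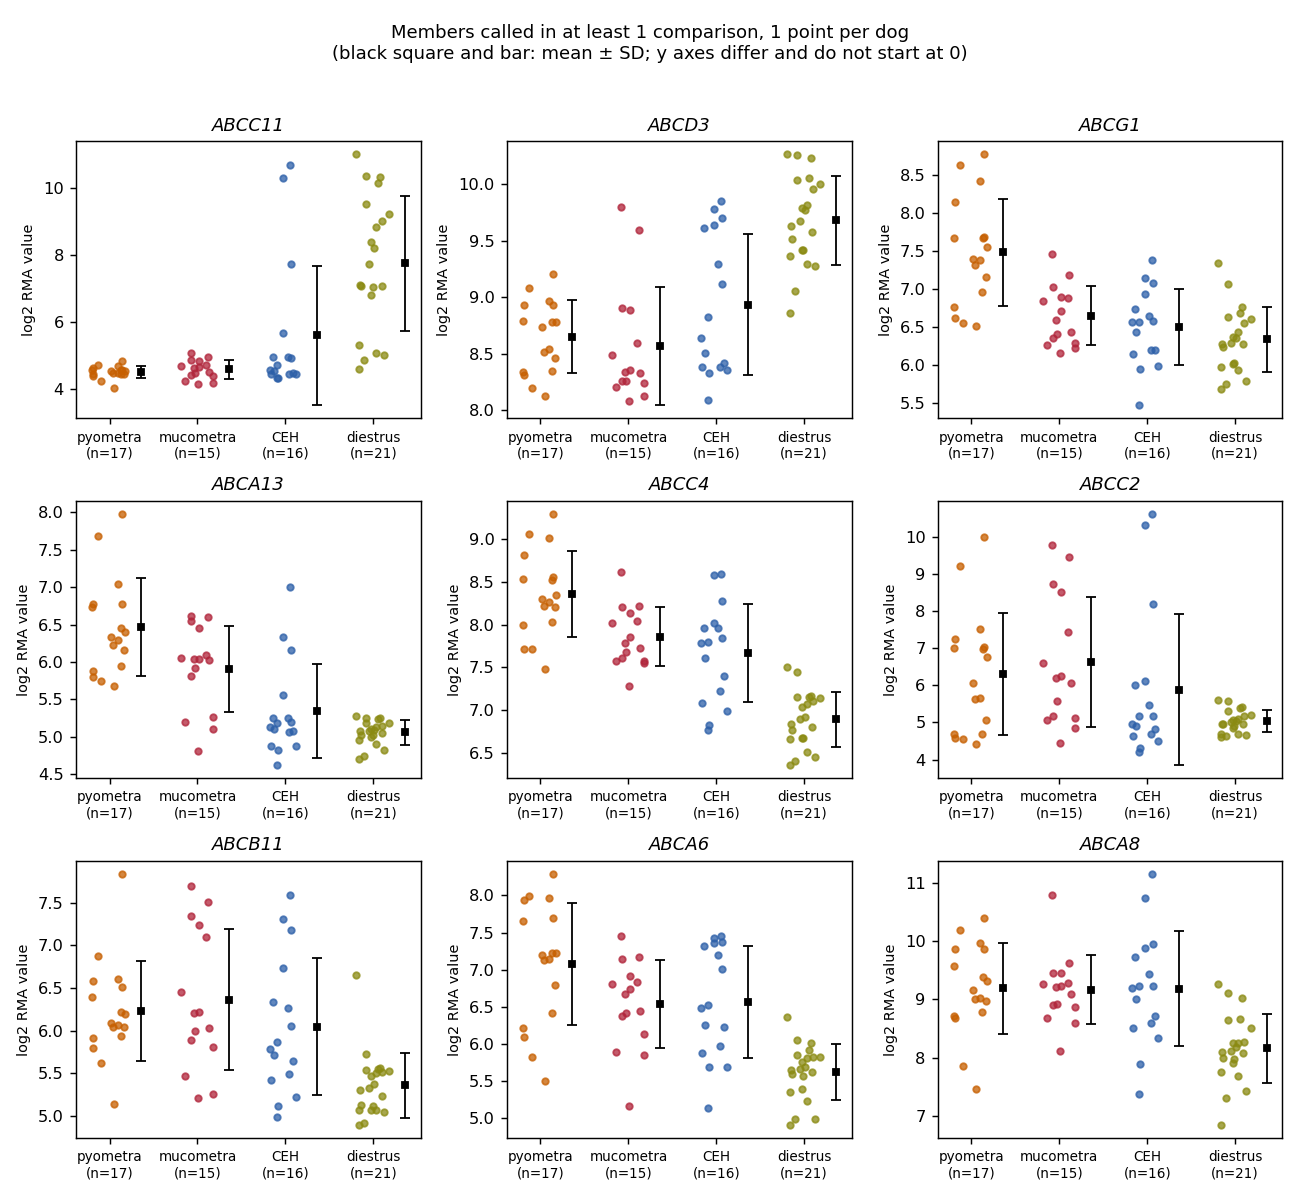
Log2 RMA values of the 9 members called in at least 1 comparison, 1 point per dog, with pyometra, mucometra, CEH and diestrus from left to right and the mean ± SD as a black square and bar. ABCC11 forms a low band in pyometra and mucometra (4.05 to 5.09) and is spread in CEH and diestrus (4.34 to 11.01). ABCC2 is flat in diestrus (4.61 to 5.60) and reaches 10.62 in CEH.

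ABCD3, the peroxisomal membrane transporter that brings branched and long-chain acyl-CoA and bile acid precursors into peroxisomes, was the other gene that fell. Its value ran from 8.13 to 9.21 in pyometra (median 8.74), from 8.08 to 9.80 in mucometra (median 8.34), from 8.09 to 9.85 in CEH (median 8.74) and from 8.86 to 10.27 in diestrus (median 9.68). Of the 17 pyometra dogs 12 lay below every diestrus dog, and 19 of the 21 diestrus dogs lay above every pyometra dog. Mucometra and CEH overlapped diestrus more widely, since mucometra dogs 227 and 90 (9.6 and 9.8) and CEH dogs such as 83 and 175 (9.85 and 9.78) lay within the diestrus range.

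ABCD3 fell by 1.03 in pyometra (SE 0.117, adjusted p = 1.5e-09, limma) and by 1.12 in mucometra (SE 0.148, adjusted p = 1.24e-07), and differed by -0.75 in CEH (SE 0.163, adjusted p = 0.00114), under 2-fold. Without pyometra dog 217 the pyometra difference was -0.999, just under 2-fold. ABCD2, which carries very-long-chain acyl-CoA into peroxisomes, was lower by less than 2-fold, at -0.78 in pyometra (adjusted p = 2.06e-05) and -0.55 in mucometra (adjusted p = 0.00245). ABCD4, which works in lysosomal cobalamin transport, differed by less than 0.01 in pyometra, at -0.004 (SE 0.065).

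Of 13 measured genes of peroxisomal fatty acid oxidation and import, 1 fell in pyometra against diestrus, the fatty acyl-CoA ligase SLC27A2 (-2.0, SE 0.328, adjusted p = 2.6e-06), and none rose. Over all genes 3.26% fell and 6.72% rose. The median difference of the 13 was -0.23, against -0.05 over all genes. Epithelial markers moved the same way: 2 of 11 fell and none rose in pyometra, and the mean of the list ran from 7.74 to 9.61 in pyometra, 8.0 to 9.55 in mucometra, 7.55 to 9.36 in CEH and 8.79 to 10.03 in diestrus. The part of epithelial content in the lower ABCC11 and ABCD3 was not tested.

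ABCG1 moves cholesterol from cells to high-density lipoprotein, and with ABCA1, which loads cholesterol and phospholipid onto apolipoprotein A-I, it is a well-known target of the liver X receptors (LXR) in macrophages. The value of ABCG1 ran from 6.52 to 8.78 in pyometra (median 7.39), from 6.16 to 7.46 in mucometra (median 6.59), from 5.47 to 7.38 in CEH (median 6.57) and from 5.69 to 7.34 in diestrus (median 6.29). Of the 17 pyometra dogs, 10 lay above every diestrus dog, 9 above every CEH dog and 8 above every mucometra dog. The other pyometra dogs lay within the range of the other diagnoses.

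ABCG1 rose in pyometra by 1.15 against diestrus (SE 0.179, 2.21-fold, adjusted p = 1.13e-06, limma) and by 1.01 against the other 52 dogs (SE 0.144, adjusted p = 2.54e-08). It differed by 0.98 from CEH (SE 0.206, adjusted p = 0.000328) and by 0.83 from mucometra (SE 0.197, adjusted p = 0.00167), both under 2-fold. Without pyometra dog 100 and mucometra dog 216 the difference from CEH was 1.04 and passed 2-fold. Mucometra and CEH did not pass the test against diestrus, at 0.31 (SE 0.136, adjusted p = 0.057) and 0.16 (SE 0.148, adjusted p = 0.444). In order of means, pyometra (7.49) stood above mucometra (6.65) by its adjusted p, while mucometra, CEH (6.50) and diestrus (6.34) were not separated from their neighbours by the test. With the case number as a covariate ABCG1 was 0.80 higher in pyometra than in diestrus (adjusted p = 0.0207) and 0.91 higher than in the other dogs (adjusted p = 8.87e-06), both under 2-fold. The call against the other dogs was also lost when any of 19 of the 69 dogs was left out (0.93 to 1.00) and with arrays centred on their medians (0.96).

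ABCA1 went the same way by less. Its mean was 9.78 ± 0.45 in pyometra, 9.18 ± 0.37 in mucometra, 9.09 ± 0.59 in CEH and 9.33 ± 0.32 in diestrus, and it was not called in any comparison (0.45 in pyometra against diestrus, SE 0.123, adjusted p = 0.00214). Dogs with more ABCA1 tended to have more ABCG1 within each diagnosis, with r = 0.83 in pyometra, 0.77 in mucometra, 0.65 in CEH and 0.55 in diestrus. In pyometra rho was 0.81, and r was 0.75 without the 2 dogs farthest from the median of ABCA1 (permutation p = 5e-05 for r and 0.00021 for rho, adjusted over 28 relations 0.00035 and 0.00196). In mucometra rho was 0.71 and r without 2 dogs 0.57 (permutation p = 0.0006 and 0.00416, adjusted 0.00313 and 0.0233). In diestrus rho was 0.55 and r without 2 dogs 0.59 (permutation p = 0.00889 and 0.0111, adjusted 0.0311 and 0.0446). In CEH the relation was weaker by rank (rho 0.53, permutation p = 0.00639 for r and 0.035 for rho, adjusted 0.0256 and 0.109) and did not pass by rank. There r was 0.38 without 2 dogs, so its size depended on them.

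Of 19 measured genes of cholesterol efflux and LXR signalling 8 rose in pyometra against diestrus and none fell. Their median was 0.57, against -0.05 over all genes, of which 6.72% rose and 3.26% fell. SREBF1, an LXR target that drives fatty acid synthesis, had lower values (-0.56, adjusted p = 1.65e-05), under 2-fold. The largest rises were those of APOE, the apolipoprotein that takes up cellular cholesterol (2.31, SE 0.147, adjusted p = 1.4e-15), NPC2, which carries cholesterol out of lysosomes (1.53, SE 0.217, adjusted p = 1.75e-07), and APOC1, a lipoprotein component (1.46, SE 0.194, adjusted p = 4.88e-08). In mucometra 5 of the 19 rose, with APOE at 1.75 (adjusted p = 1.34e-10), and in CEH 2 rose, although ABCG1 did not pass in either. Over all genes 3.56% rose in mucometra and 0.865% in CEH. In pyometra against mucometra none of the 19 was called in limma, against 3.65% of all genes, with 9 at an unadjusted p under 0.05. Of 14 measured genes of cholesterol synthesis and uptake none passed the threshold of limma in pyometra against diestrus, with 8 at an unadjusted p under 0.05 and a median of 0.15.

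Markers of white blood cells moved with these values. Of 14 measured macrophage and monocyte genes 13 rose in pyometra against diestrus, and the mean of the list ran from 7.05 to 9.67 in pyometra, 6.51 to 8.21 in mucometra, 5.54 to 8.0 in CEH and 5.74 to 7.35 in diestrus. Of 11 neutrophil genes 9 rose, with list means from 5.71 to 10.45 in pyometra, 5.50 to 6.48 in mucometra, 5.35 to 6.16 in CEH and 5.15 to 5.99 in diestrus. Of the B and plasma cell genes 7 of 9 rose, and of the T and NK cell genes 5 of 11. Over all genes 6.72% rose in pyometra against diestrus. The part of white blood cells in the higher ABCG1, ABCA13, ABCA6 and ABCC4 was not tested.

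Among the other members of subfamily G, ABCG2, which exports drugs and conjugates and protects stem cells and barrier tissues, had lower values in pyometra (5.62 to 7.6, median 6.42) than in mucometra (6.24 to 7.35, median 7.01), CEH (6.26 to 8.15, median 7.24) and diestrus (6.10 to 8.19, median 7.26). The difference from diestrus was -0.81 (SE 0.177, adjusted p = 0.000193) and stayed under 2-fold. ABCG4, ABCG5 and ABCG8 differed by -0.29 to -0.08 in pyometra against diestrus. The intestinal and liver sterol exporter is a pair of ABCG5 and ABCG8, neighbours in the genome, and their values had r = -0.08 in pyometra, 0.66 in mucometra, 0.30 in CEH and 0.06 in diestrus. The mucometra relation passed by r and by rank (rho 0.66, permutation p = 0.0124 for r and 0.00876 for rho, adjusted 0.0387 and 0.0409). Its r was 0.39 without the 2 dogs farthest from the median of ABCG5, so its size depended on them. The mean of ABCG5 in mucometra was 3.845 and may be near background.

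**Figure D3:**
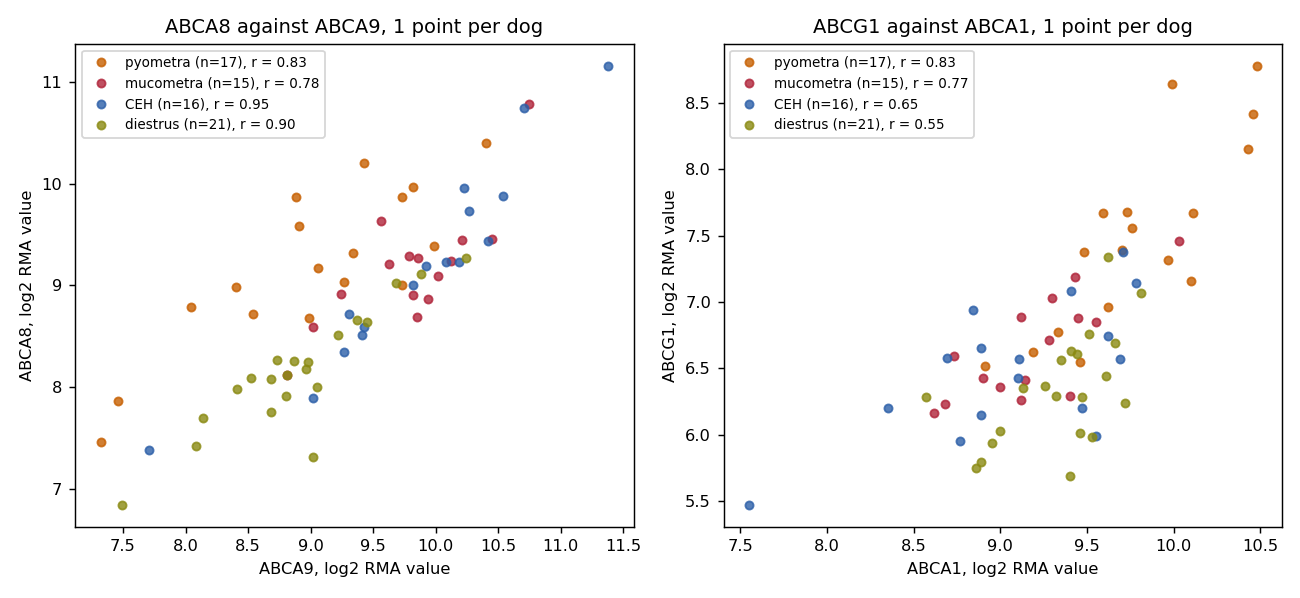
Log2 RMA value of ABCA8 against ABCA9 (left) and of ABCG1 against ABCA1 (right), 1 point per dog, coloured by diagnosis. The r of each diagnosis is given in the key: 0.78 to 0.95 for ABCA8 and ABCA9, and 0.55 to 0.83 for ABCA1 and ABCG1.

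ABCA13, one of the longest proteins of the family, was the only member whose pyometra and diestrus dogs did not overlap. Its value ran from 5.68 to 7.98 in pyometra (median 6.34), from 4.81 to 6.61 in mucometra (median 6.04), from 4.62 to 7.00 in CEH (median 5.16) and from 4.70 to 5.28 in diestrus (median 5.08). All 17 pyometra dogs lay above all 21 diestrus dogs, a separation upward shown by 0.985% of all genes and by no other member. No member separated downward (0.47% of all genes). Of the mucometra dogs 11 lay above every diestrus dog, and of the CEH dogs 4. The diestrus values lay far below the median gene mean of 7.05. Whether they are background signal was not tested, and their narrow spread and the separation may depend on that.

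ABCA13 rose in pyometra by 1.41 against diestrus (SE 0.143, 2.65-fold, adjusted p = 1.36e-10, limma), by 1.12 against CEH (SE 0.215, adjusted p = 0.000122) and by 1.07 against the other dogs (SE 0.165, adjusted p = 1.41e-07). It differed by 0.56 from mucometra (SE 0.209, adjusted p = 0.0354), and mucometra differed by 0.84 from diestrus (SE 0.128, adjusted p = 1.19e-06), both under 2-fold. The call against CEH was lost with the case number as a covariate (0.90, adjusted p = 0.0142), and the call against the other dogs was lost with it (0.83, adjusted p = 0.000155) and without pyometra dog 199 or 225, at 0.98 to 1.00.

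ABCA5, ABCA6, ABCA8 and ABCA9 belong to a cluster of related A-subfamily genes, in which ABCA5 and ABCA6 are neighbours and ABCA9 and ABCA8 are neighbours in the RefSeq order. ABCA8 is known in mice and humans for an effect on high-density lipoprotein. ABCA6 ran from 5.51 to 8.29 in pyometra (median 7.20), from 5.17 to 7.45 in mucometra (median 6.68), from 5.14 to 7.45 in CEH (median 6.51) and from 4.91 to 6.37 in diestrus (median 5.66). Of the pyometra dogs 13, of the mucometra dogs 11 and of the CEH dogs 9 lay above every diestrus dog. ABCA6 rose by 1.45 in pyometra (SE 0.195, 2.74-fold, adjusted p = 5.8e-08) and differed by 0.91 in mucometra (SE 0.156, adjusted p = 8.37e-06) and 0.94 in CEH (SE 0.183, adjusted p = 0.000465), just under 2-fold. Without mucometra dog 90 or CEH dog 81 these became 1.01 and 1.035.

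ABCA8 rose by similar amounts in all 3 lesions against diestrus, close to 2-fold in each. It ran from 7.46 to 10.40 in pyometra (median 9.17), from 8.12 to 10.79 in mucometra (median 9.21), from 7.38 to 11.16 in CEH (median 9.21) and from 6.84 to 9.27 in diestrus (median 8.12), so that the groups overlapped widely. The differences were 1.03 in pyometra (SE 0.215, adjusted p = 0.000102), 1.01 in mucometra (SE 0.194, adjusted p = 4.56e-05) and 1.03 in CEH (SE 0.252, adjusted p = 0.00301). Each call lay so near 2-fold that leaving out 8 of the 38, 12 of the 36 and 8 of the 37 dogs, 1 at a time, ended it. With each array centred on its own median the differences were 0.98 in pyometra and 0.99 in mucometra. With the case number as a covariate both calls were lost, at 0.80 in pyometra (adjusted p = 0.0644) and 0.98 in mucometra (adjusted p = 0.00181).

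ABCA9 tracked ABCA8 from dog to dog, and its differences from diestrus were near those of ABCA8 in mucometra and CEH but not in pyometra. Within a diagnosis their values had r = 0.83 in pyometra, 0.78 in mucometra, 0.95 in CEH and 0.90 in diestrus. By rank the values were 0.75, 0.58, 0.97 and 0.80, and r without the 2 farthest dogs was 0.64, 0.50, 0.94 and 0.81. The permutation p for r was 3e-05 in pyometra, 0.00067 in mucometra and 1e-05, the smallest that 100000 permutations can give, in CEH and diestrus (adjusted 0.00028, 0.00313, 0.00014 and 0.00014). For rho it was 0.00081, 0.0261, 1e-05 and 7e-05 (adjusted 0.00567, 0.0912, 0.00028 and 0.00098), so the mucometra relation did not pass by rank. ABCA9 was higher than in diestrus by 0.90 in mucometra (SE 0.190, adjusted p = 0.000162) and 0.95 in CEH (SE 0.233, adjusted p = 0.00304) and differed by 0.11 in pyometra (SE 0.232, adjusted p = 0.72). None of these passed 2-fold, though the CEH difference did without diestrus dog 25 or CEH dog 81 or 155, at 1.00 to 1.09.

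ABCA5 and ABCA6 showed no such tie, with r between -0.14 and 0.36, and ABCA5 differed from diestrus by no more than 0.08 in any lesion. Of 10 stromal markers 5 rose in pyometra, 2 in mucometra and 0 in CEH against diestrus (limma; 7 had an unadjusted p under 0.05 in CEH), with list means from 10.11 to 11.58 in pyometra, 10.24 to 11.09 in mucometra, 9.46 to 11.12 in CEH and 9.22 to 10.59 in diestrus. Over all genes 6.72% rose in pyometra, 3.56% in mucometra and 0.865% in CEH. The part of stromal cells in the higher ABCA6, ABCA8 and ABCA9 was not tested. ABCA3, the lamellar body lipid transporter of lung, was higher in pyometra by 0.75 (SE 0.205, adjusted p = 0.00219), under 2-fold. The other members of subfamily A, ABCA2, ABCA4, ABCA7 and ABCA12, differed by -0.16 to 0.22 in pyometra against diestrus.

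ABCC4 exports cyclic AMP and prostaglandins. It ran from 7.48 to 9.29 in pyometra (median 8.30), from 7.28 to 8.61 in mucometra (median 7.79), from 6.77 to 8.59 in CEH (median 7.79) and from 6.36 to 7.51 in diestrus (median 6.90). Of the pyometra dogs 16 of 17 lay above every diestrus dog, as did 14 of 15 mucometra dogs and 10 of 16 CEH dogs. ABCC4 rose by 1.46 in pyometra (SE 0.130, 2.75-fold, adjusted p = 6.08e-12, limma) and was higher by 0.96 in mucometra (SE 0.110, adjusted p = 8.07e-09) and 0.77 in CEH (SE 0.145, adjusted p = 0.00034). The mucometra difference passed 2-fold without mucometra dog 210 (1.003) and with the case number as a covariate (1.11, adjusted p = 1.25e-07).

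ABCC2, which exports bilirubin glucuronide and other conjugates into bile, varied little in diestrus and widely within each lesion. It ran from 4.42 to 10 in pyometra (median 6.07), from 4.45 to 9.79 in mucometra (median 6.21), from 4.19 to 10.62 in CEH (median 5.06) and from 4.61 to 5.60 in diestrus (median 5.0). Above every diestrus dog lay 11 of 17 pyometra dogs, 9 of 15 mucometra dogs and 5 of 16 CEH dogs, while 3, 1 and 3 dogs lay below every diestrus dog. The highest were pyometra dogs 214 and 225 (9.22 and 10), mucometra dogs 92 and 91 (9.45 and 9.79) and CEH dogs 133 and 171 (10.32 and 10.62). The diestrus values lay far below the median gene mean of 7.05. Whether they are background signal was not tested, and their narrow spread may depend on that.

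ABCC2 rose by 1.27 in pyometra (SE 0.353, adjusted p = 0.00263, limma) and by 1.59 in mucometra (SE 0.373, adjusted p = 0.000569). In CEH it differed by 0.84 (SE 0.432, adjusted p = 0.148), and leaving out 1 dog at a time gave values down to 0.53. The pyometra call was lost with the case number as a covariate (1.07, adjusted p = 0.138). The SD of ABCC2 was 1.65 in pyometra, 1.75 in mucometra and 2.03 in CEH, against 0.297 in diestrus. ABCC2 and ABCC11 were the only members with an SD over 1 in any diagnosis, where the median SD of the members was 0.28 to 0.36.

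CEH dogs 133 and 171 were also the highest 2 of their diagnosis in ABCA8 (10.75 and 11.16), ABCA9 (10.71 and 11.38), ABCB11 (7.59 and 7.31) and ABCA6 (7.45 and 7.43). They were not among the CEH dogs with high ABCC11, at 4.5 and 4.94. The 3 CEH dogs with high ABCC11, 127, 81 and 175, had ABCC2 at 4.64, 5.16 and 5.18, ABCC4 at 7.09, 6.99 and 6.77, and ABCD3 at 9.12, 9.61 and 9.78. In CEH the lowest value of ABCA6, ABCA8 and ABCA9 was that of dog 81, at 5.14, 7.38 and 7.71.

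**Figure D4:**
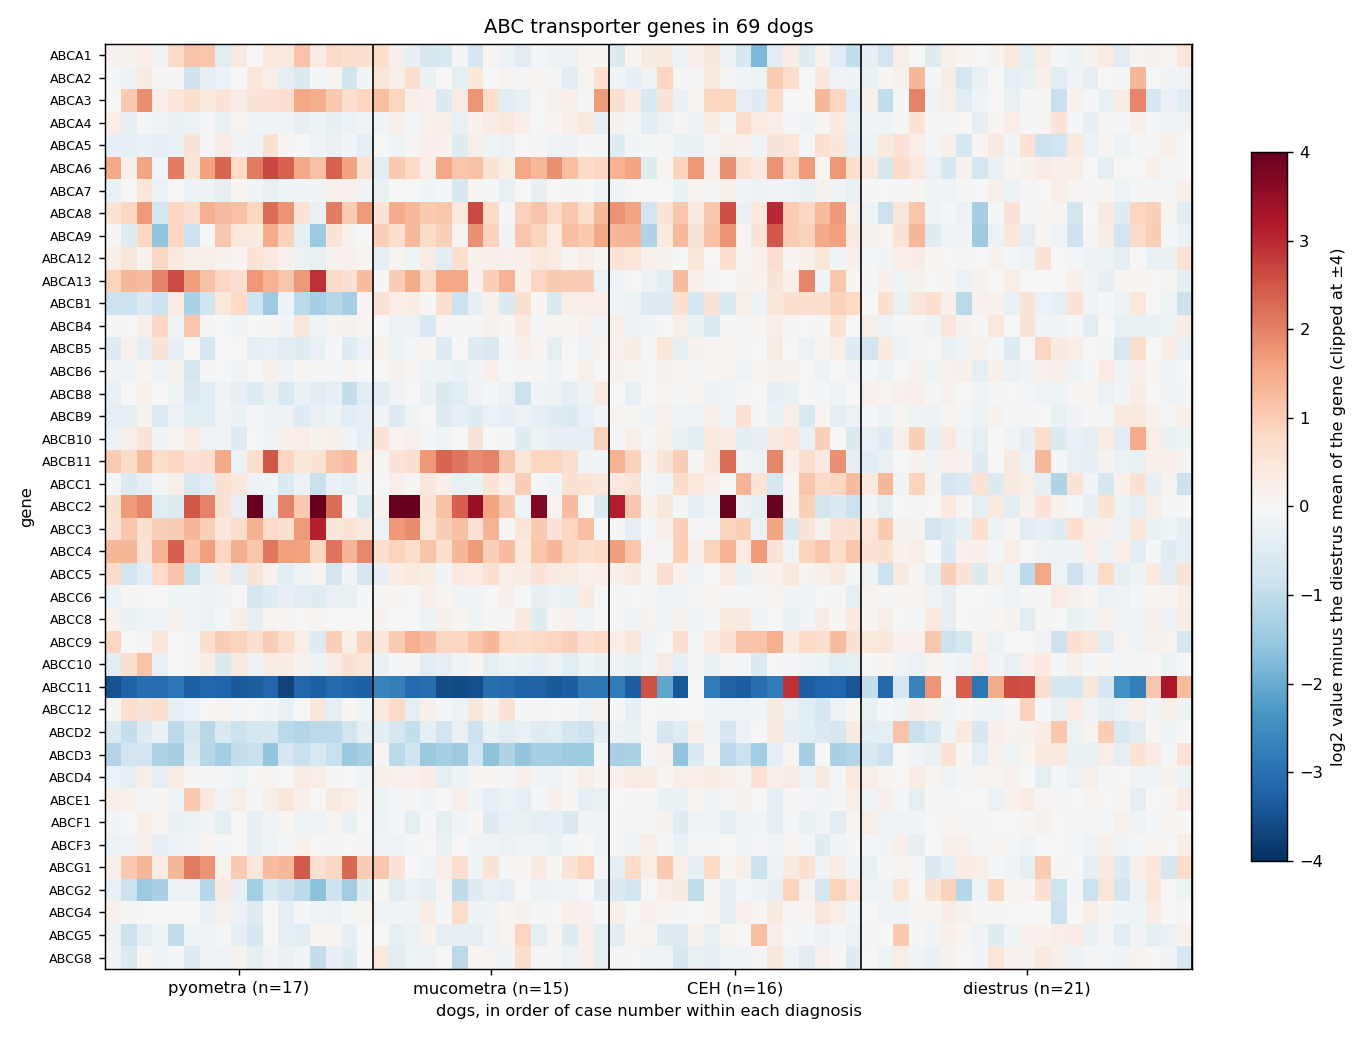
Log2 value of the 41 members in each of the 69 dogs minus the diestrus mean of the gene, clipped at ±4, with genes in rows by subfamily and dogs in columns by diagnosis and case number. ABCC11 is low in all pyometra and mucometra dogs, 13 of 16 CEH dogs and diestrus dogs 7, 84, 152, 25 and 148. ABCC2 lies above every diestrus dog in 11 of 17 pyometra, 9 of 15 mucometra and 5 of 16 CEH dogs.

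ABCC3, which exports conjugates across the basolateral face of epithelia, was just under 2-fold higher in pyometra, at 0.98 (SE 0.179, adjusted p = 1.61e-05), and 0.81 higher in mucometra (SE 0.176, adjusted p = 0.00022). Its value ran from 6.72 to 9.45 in pyometra (median 7.12), from 6.12 to 8.25 in mucometra (median 7.22), from 5.77 to 7.92 in CEH (median 6.54) and from 5.61 to 7.39 in diestrus (median 6.17). The highest was that of pyometra dog 225, which was also the highest for ABCC2 and, at 7.98, for ABCA13. The pyometra difference passed 2-fold when any of 10 dogs was left out, at 1.00 to 1.03. With the case number as a covariate ABCC3 was called in pyometra (1.09, adjusted p = 0.00251) and in mucometra (1.04, adjusted p = 0.000232).

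ABCC9, the regulatory subunit of the ATP-sensitive potassium channel of smooth muscle and vessels, had means of 8.64 ± 0.46 in pyometra, 9.09 ± 0.26 in mucometra, 8.77 ± 0.47 in CEH and 8.17 ± 0.49 in diestrus. It was highest in mucometra, 0.91 above diestrus (SE 0.136, adjusted p = 8.97e-07) and under 2-fold, and was called there with the case number as a covariate (1.12, adjusted p = 2.46e-06). Its channel partner KCNJ8 rose in mucometra against diestrus by 1.12 (SE 0.120, adjusted p = 2.26e-09) and differed by 0.24 in pyometra (adjusted p = 0.213). ABCC8 and its partner KCNJ11, the pair known from pancreatic beta cells, differed by no more than 0.05 in any lesion against diestrus. Of 9 smooth muscle markers 1 rose in pyometra, 2 in mucometra and 2 in CEH against diestrus. Of 10 endothelial markers 3 rose in pyometra, 0 in mucometra and 0 in CEH (limma; 5 had an unadjusted p under 0.05 in mucometra and 6 in CEH). Of all genes 6.72% rose in pyometra, 3.56% in mucometra and 0.865% in CEH. The part of these cell types in ABCC9 and KCNJ8 was not tested.

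The remaining exporters of subfamily C moved little. ABCC1, ABCC5, ABCC6 and ABCC10 differed by -0.23 to 0.18 in pyometra against diestrus. ABCC1 was lower in pyometra than in CEH by 0.67 on the log2 scale (-0.67, SE 0.161, adjusted p = 0.00138), under 2-fold. Glutathione supply and NFE2L2 signalling provide the conjugates that many C members carry. In pyometra against diestrus 6.72% of all genes rose and 3.26% fell. Of 12 genes of that supply and signalling 3 rose there (GCLM, GSR and ME1) and 2 fell (GCLC and GGT1). The largest of these were GGT1, which breaks down glutathione outside cells (-1.90, SE 0.427, adjusted p = 0.000267), GCLC, the catalytic subunit of glutathione synthesis (-1.90, SE 0.146, adjusted p = 1.36e-13), and GCLM, its modifier subunit (1.68, SE 0.201, adjusted p = 5.48e-09).

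CFTR, the chloride channel that belongs to subfamily C by descent but carries a symbol of its own, was not a member by the rule. Its value ran from 8.41 to 10.84 in pyometra (median 9.96), 5.46 to 9.49 in mucometra (median 8.80), 4.54 to 9.39 in CEH (median 6.43) and 4.49 to 7.91 in diestrus (median 5.18). It rose by 3.94 in pyometra against diestrus (SE 0.310, 15.4-fold, adjusted p = 2.5e-13) and by 2.63 in mucometra (SE 0.372, adjusted p = 3.78e-07).

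ABCB11, the bile salt export pump of the liver, was the only B member called. It ran from 5.14 to 7.84 in pyometra (median 6.09), from 5.21 to 7.70 in mucometra (median 6.21), from 4.98 to 7.59 in CEH (median 5.82) and from 4.89 to 6.65 in diestrus (median 5.33). It rose in mucometra by 1.00 against diestrus (SE 0.198, adjusted p = 6.5e-05, limma), and was higher by 0.87 in pyometra (SE 0.153, adjusted p = 8.38e-06) and 0.68 in CEH (SE 0.193, adjusted p = 0.00838), under 2-fold. The mucometra call sat at the 2-fold line, and was lost when any of 15 of the 36 dogs was left out (0.91 to 1.00), when arrays were centred on their medians (0.99) and with the case number as a covariate (0.91).

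ABCB1, the P-glycoprotein that pumps many drugs out of cells, had lower values in pyometra (5.18 to 7.44, median 5.81) than in mucometra (5.79 to 7.31, median 6.89), CEH (5.93 to 7.56, median 7.00) and diestrus (5.57 to 7.32, median 6.63). The difference was -0.64 from diestrus (SE 0.181, adjusted p = 0.00317) and -0.81 from CEH (SE 0.211, adjusted p = 0.00284), under 2-fold. The difference from CEH was called with the case number as a covariate, at -1.12 (adjusted p = 0.00208). ABCB4, its genomic neighbour and the phosphatidylcholine floppase of bile, differed by 0.15 from diestrus, and they were not related within any diagnosis by permutation (r from -0.39 to 0.40, adjusted p of at least 0.277 for r and 0.147 for rho).

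The organelle members of subfamily B differed by small amounts. ABCB6, ABCB8 and ABCB10, of mitochondria and related membranes, and ABCB9, a lysosomal peptide transporter, differed by -0.33 to 0.00 in pyometra against diestrus. Of 13 measured genes of haem and iron-sulphur supply 1 rose, HMOX1, which breaks down haem (1.15, SE 0.170, adjusted p = 4.48e-07), where 6.72% of all genes rose. The median of the 13 was lower than in diestrus, at -0.22 against -0.05 over all genes, and 11 had an unadjusted p under 0.05 in limma. TAP1 and TAP2, relatives of ABCB9 that load peptides for antigen presentation, differed by 0.75 (adjusted p = 6.24e-06) and 0.06 (adjusted p = 0.466) and did not pass 2-fold, while 3 of the 11 genes of that pathway rose, the proteasome subunits PSMB8 (1.27) and PSMB9 (1.23) and the light chain B2M (1.18).

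By the probe sets used, the ribosome-acting members ABCE1, ABCF1 and ABCF3 were among the steadiest. Their SDs within a diagnosis were between 0.10 and 0.29, and they differed from diestrus by -0.25 to 0.20 in the 3 lesions. A dimmer probe set of ABCF1, not used here, differed by -0.45 in pyometra against diestrus (adjusted p = 3.9e-08, limma). ABCE1, which splits ribosomes after termination, was 0.20 higher in pyometra than in diestrus (SE 0.077, adjusted p = 0.0307) and 0.31 higher than in mucometra (SE 0.089, adjusted p = 0.00707), under 2-fold in each.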

How the data were processed

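The authors extracted RNA from macrodissected endometrium and deposited log2 values of 69 Canine Gene 1.0 ST arrays after RMA background correction and quantile normalisation (RMA version not given in the sources used here). Values were used as deposited, and no array intensities were used. Of 32391 probe sets 16545 had 1 symbol, 370 several and 15476 none, and 598 lesser probe sets were set aside, leaving 15947 genes. All 41 members matched the RefSeq table of UU_Cfam_GSD_1.0 by symbol, used for names and gene order. Groups came from the sample titles, and another label of the 15 mucometra dogs reads hemometra. Each comparison was a limma 3.58.1 fit (lmFit, eBayes, R 4.3.3) of the groups compared, checked on simulated data with 200 genes changed 3-fold (196 to 200 recovered, 0 to 3 false calls). The simulation gave each gene the same normal spread in every group and no change near 2-fold. It therefore does not measure the reliability of calls near 2-fold or of genes with unequal spread, such as ABCC11 and ABCC2. Relations within a diagnosis used two-sided tests with 100000 permutations (scipy 1.17.1), adjusted over 28. Figures used matplotlib 3.10.9. ABCC11, ABCG1 and every member called at least once were described in full, and up to 3 called genes of each partner list. The members, lists and tests were chosen with earlier results of these data known. The number of arrays limits the precision. Alternatives were another fit, weights, prior, filter, probe set rule, scaling, threshold, case number and single dogs left out.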

Additional observations from a re-analysis of the deposited data

Results flagged for a closer look

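Another probe set of ABCB11, dimmer than the one used in the report, was also called in mucometra against diestrus (1.03, SE 0.208, adjusted p = 8.76e-05, limma), a signal outside the probe sets reported on. In the other comparisons it was not called, at 0.81 in pyometra and 0.61 in CEH against diestrus. It carries the same gene symbol and the same dogs, so it is not independent of the value in the report.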

How the results depend on the processing

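The alternatives were followed for 69 differences of members, the calls and the larger uncalled ones, and none of these reversed direction. The direction of smaller differences was not checked. By adjusted p alone, with no fold limit, the members called numbered 24 in pyometra against diestrus, 20 against CEH, 14 against mucometra, 18 in mucometra against diestrus, 12 in CEH against diestrus and 21 in pyometra against the other dogs. Without pyometra dog 100 and mucometra dog 216, pyometra against CEH called 2 (ABCA13 and ABCG1). With arrays centred on their medians, mucometra against diestrus called 3. With the case number as a covariate, pyometra against the other dogs called 0. Case numbers go with diagnosis, from 185 to 231 in pyometra apart from dog 100 and from 6 to 170 in diestrus, and the cause of these moves was not tested. Leaving out each dog in turn gave 6 to 9 members called in pyometra against diestrus, 1 to 2 against CEH, 0 to 0 against mucometra, 3 to 6 in mucometra against diestrus, 0 to 0 against CEH, 1 to 4 in CEH against diestrus and 1 to 3 in pyometra against the other dogs. One fit over all diagnoses, array weights, a robust trended prior, a filter at a mean of 5 and the mean of a gene's probe sets changed no call that they could test. ABCG1 against the other dogs was lost without any of 19 dogs (0.93 to 1.00) and with arrays centred (0.96). No paired analysis was possible because each sample number belongs to 1 dog and the diagnoses share none.

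Calls near 2-fold turned on single dogs. Leaving out any of these ended the call of ABCG1 against the other dogs: pyometra 186, 199, 205, 206, 218, 222 and 229, mucometra 188, CEH 13, 127, 162 and 171, and diestrus 6, 30, 79, 118, 141, 148 and 157. It was gained against CEH (1.00 to 1.04) without pyometra 100, 198, 207, 214, 225 or 228 or CEH 29, 83, 131 or 180. ABCC3 was gained in pyometra against diestrus without pyometra 100, 207, 228, 229 or 231 or diestrus 6, 7, 84, 122 or 152. ABCA8 against diestrus was lost (0.89 to 1.00) without pyometra 186, 217, 218, 228 or 231, mucometra 91, 92, 188, 215 or 227, CEH 13, 29, 133, 171 or 208, diestrus 7, 84 or 122 in all 3 comparisons, and diestrus 30, 82, 148 or 170 in mucometra. ABCB11 in mucometra was lost without mucometra 172, 174, 182, 188, 191 or 200 or diestrus 6, 7, 30, 84, 118, 122, 141, 148 or 152.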

Other observations

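The dimmer probe set of ABCF1 differed by -0.45 in pyometra against diestrus (SE 0.059, adjusted p = 3.9e-08), while the brighter one used in the report differed by -0.09 (SE 0.049, adjusted p = 0.125). In pyometra against mucometra the dimmer one differed by -0.43 (adjusted p = 0.00012, limma) and the brighter one by 0.16 (adjusted p = 0.0617). All of these are under 2-fold, and the probe sets of 1 gene did not give the same value. The probe set shared by ABCF2 and LOC611989 differed by 0.17 (SE 0.077, adjusted p = 0.0561).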
